A study of Mus musculus with 6 samples.

Results

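Gkn1, Gkn2, Tff1, Tff2, Muc5ac, Muc6 and Cldn18 are genes of the mucous cells that line the pits and necks of the glandular stomach. They were followed array by array in a study of Sox2, a transcription factor of stem cells and the foregut, in the mouse forestomach. Members were chosen by name alone: every probe whose gene name in the scanner files was 1 of these symbols was taken. This gave 8 probes, with 2 for Muc5ac and 1 for each other gene, of 41174 probes on the array. All 7 genes were among the 20579 genes tested. RNA came from epithelial sheets of the forestomach of 3 K5-CreER control mice and 3 K5-CreER;Rosa26Sox2/Sox2 mutant mice. In K5-CreER mice the keratin 5 promoter drives a Cre recombinase that tamoxifen switches on, and this promoter is active in basal cells of stratified epithelia. In the mutants, per the labels, Cre acts on animals that carry Sox2 at both copies of Rosa26. Controls and mutants alike received 2 tamoxifen doses at 7 weeks of age, and the samples are given as 12 weeks old, on a mixture of 129/Sv and C57/BL6. Each sample, in Cy5, was hybridised together with a reference RNA pooled from 11 mouse cell lines, in Cy3.

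The mouse forestomach is lined by squamous epithelium, and mucous cells belong to the glandular stomach on the far side of a sharp boundary. Pit cells at the surface secrete the mucin Muc5ac, the trefoil peptide Tff1 and the gastrokines Gkn1 and Gkn2, whereas neck cells deeper in the gland secrete the mucin Muc6 and the trefoil peptide Tff2. Claudin 18 seals the junctions between gastric epithelial cells.

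The members lie in 4 places of the genome. Gkn1 and Gkn2 lie close together on chromosome 6, Tff1 and Tff2 on chromosome 17, Muc5ac and Muc6 in a mucin cluster on chromosome 7, and Cldn18 on chromosome 9. In the build given by the file headers, mm9 (NCBI37), the probes lie at chr6:87295866-87295925 on the minus strand for Gkn1, chr6:87329285-87329344 on the plus strand for Gkn2, chr17:31298471-31298530 on the minus strand for Tff1 and chr17:31279256-31280080 on the minus strand for Tff2, an interval longer than the probe. For Muc5ac they lie at chr7:149004793-149004852, the probe used for the test, and at chr7:148996574-148996633, both on the plus strand. The Muc6 probe lies at chr7:148822365-148822424 and the Cldn18 probe at chr9:99591218-99591257, both on the minus strand. Exon and untranslated region annotation of this build was not used here. The probe sequences of the mucins and of Tff2 are shown 5′ to 3′ as the files give them, because the Muc5ac probes differed in signal and because the probes of Tff2 and Muc6, both neck cell genes, did too.
Muc5ac, tested probe: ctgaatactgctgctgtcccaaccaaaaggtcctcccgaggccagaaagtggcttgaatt
Muc5ac, the other probe: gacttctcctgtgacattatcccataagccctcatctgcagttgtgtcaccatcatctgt
Muc6: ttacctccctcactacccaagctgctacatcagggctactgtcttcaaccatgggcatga
Tff2: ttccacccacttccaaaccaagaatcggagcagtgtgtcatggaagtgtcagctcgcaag

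Promoters were read from RefSeq tables of build GRCm38.p6, whose coordinates cannot be set beside those of the probes. The table held Gkn1, Gkn2, Muc6 and Cldn18. Those of Gkn1, Gkn2 and Cldn18 are shown because these genes moved together across arrays, and that of Muc6 because its dim probe did not. Each is the 250 bases before the start, 5′ to 3′ on the gene's own strand, at chr6:87350916-87351165 (minus strand) for Gkn1, chr6:87373115-87373364 (plus strand) for Gkn2, chr9:99717268-99717517 (minus strand) for the upstream start of Cldn18 and chr7:141655394-141655643 (minus strand) for Muc6. Capitals mark GATAA or its reverse complement TTATC, the core letters read by GATA factors, and TATAAA, the letters of a TATA box.
Gkn1: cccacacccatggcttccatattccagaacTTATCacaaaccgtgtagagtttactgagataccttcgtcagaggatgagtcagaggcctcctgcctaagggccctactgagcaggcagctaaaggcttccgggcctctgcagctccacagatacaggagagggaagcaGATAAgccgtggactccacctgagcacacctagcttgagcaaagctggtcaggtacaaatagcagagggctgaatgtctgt
Gkn2: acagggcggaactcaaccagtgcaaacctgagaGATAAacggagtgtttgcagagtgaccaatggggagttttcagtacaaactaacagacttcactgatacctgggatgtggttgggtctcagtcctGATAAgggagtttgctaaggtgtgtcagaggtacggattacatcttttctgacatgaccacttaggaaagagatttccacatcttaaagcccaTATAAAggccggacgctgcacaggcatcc
Cldn18: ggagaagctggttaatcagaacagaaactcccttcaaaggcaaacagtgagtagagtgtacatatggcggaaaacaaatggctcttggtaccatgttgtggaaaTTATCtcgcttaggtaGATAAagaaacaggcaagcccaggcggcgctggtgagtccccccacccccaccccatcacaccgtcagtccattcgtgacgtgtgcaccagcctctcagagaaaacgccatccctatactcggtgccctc
Muc6: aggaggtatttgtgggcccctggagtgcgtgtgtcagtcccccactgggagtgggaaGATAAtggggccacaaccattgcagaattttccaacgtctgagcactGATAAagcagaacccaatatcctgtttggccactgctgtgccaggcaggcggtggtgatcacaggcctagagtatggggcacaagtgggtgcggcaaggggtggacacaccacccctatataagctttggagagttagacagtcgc

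The GATAA letters, searched on both strands, stood in at least 1 promoter of 4 of these 4 genes, against 22.6% of 32851 promoters in the table. The members are counted here by gene and the table by promoter, so the shares are not fully alike. In Cldn18 they stood before the upstream start and not before the downstream start, at chr9:99710064-99710313. TATAAA stood in 1 of the 4, Gkn2, at 29 bases before the start, against 12.4% of promoters. Neither TGTTTAC, a core read by forkhead factors (3.17% of promoters), nor CATTGT, a core read by Sox factors (3512 of the 32851), stood in any of the 4. These are letter matches in a 250-base window. They carry no information on binding, and the GATAA letters stood in Muc6 as they did in the genes that moved together.

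Across the whole set of arrays, control 3 stood apart. It was scanned on another day than the other 5 arrays, on a slide of its own and with another version of the scanner software. On this array 62.6% of probes passed the software's background test in Cy5, against 73.2% to 76.2% on the others, and the median probe signal was 4.66 times its background, against 11.3 to 12.4 times. Controls 1 and 2 were unusually alike, with a scaled median absolute difference of 0.156 in log2 ratio, as were mutants 2 and 3 with 0.104. All other pairs lay between 0.326 and 0.73. The labels call the arrays biological replicates. The columns of mutant 1 and mutant 3 in the authors' deposited table of log2 ratios each matched the other's scanner file better than its own (r = 0.973 against 0.886, and 0.969 against 0.881). Array numbers below follow the scanner files. The Sox2 probe, at position 1846 of its transcript, read log2 ratios of 6.26, 6.09 and 6.38 in controls 1 to 3 and 5.67, 5.83 and 5.95 in mutants 1 to 3. No source used here gives whether the transgene carries that stretch, so this probe does not check the genotype. The difference of -0.43 ± 0.14 (SE, n = 3 per group) did not pass (limma adjusted p = 0.143) and turned to 0.08 with the arrays scaled to the same spread.

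At their tested probes, all members but Muc6 gave strong signals on controls 1 and 2 and on mutants 2 and 3, and far weaker ones on control 3. Mutant 1 lay between these levels and differed from gene to gene. The gastrokine Gkn2 gave the clearest example. Its sample signal before background correction was 590614 and 561706 on controls 1 and 2, 190 on control 3, and 123563, 617612 and 541612 on mutants 1 to 3. Its log2 ratio of sample over reference was 5.63, 5.54 and 0.84 in controls 1 to 3 and 5.09, 5.17 and 4.58 in mutants 1 to 3. Control 3 was the lowest of the 6 arrays, and the 3 mutants fell between it and the other controls. The mean signal of controls 1 and 2 was 3040 times that of control 3. The mutants differed from the controls by 0.94 ± 1.27 log2 units (SE, n = 3 per group), with a 95% interval from -2.12 to 4.01 (limma adjusted p = 0.677).

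Gkn1, the other gastrokine, was low on mutant 1 as well as on control 3. Its log2 ratio was 4.37, 3.91 and 0.08 in controls 1 to 3 and 1.92, 4.25 and 4.0 in mutants 1 to 3. The sample signals were 4929, 3646 and 102 in the controls and 288, 5071 and 2934 in the mutants. The probe was not well above background in either channel on control 3, nor in the reference channel on mutant 1. Control 3 was lowest, mutant 1 lay between it and the rest, and the groups overlapped. The difference of 0.60 ± 1.24 (SE, n = 3 per group, 95% interval -2.38 to 3.59) did not pass (limma adjusted p = 0.79).

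Tff1, the trefoil peptide of pit cells, stayed high in every mutant. Its log2 ratio was 4.43, 4.36 and 1.68 in controls 1 to 3 and 4.05, 4.17 and 3.62 in mutants 1 to 3. Sample signals of 677247 and 625918 on controls 1 and 2 stood against 641 on control 3, and the mutants gave 188295, 738079 and 616917. Control 3 again lay below all other arrays, whose ratios spanned less than 1 log2 unit. The groups differed by 0.46 ± 0.74 (SE, n = 3 per group, 95% interval -1.33 to 2.25; limma adjusted p = 0.731).

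Tff2, the trefoil peptide of neck cells, was the most even member among the mutants by log2 ratio, though not by sample signal. Its log2 ratio was 3.37, 3.27 and 0.41 in controls 1 to 3 and 3.20, 3.00 and 3.02 in mutants 1 to 3. The sample signals were 70014, 58915 and 68 in the controls, the last not well above background in either channel, and 48192, 175894 and 85731 in the mutants. The mutants differed among themselves by an SD of 0.11 log2 units (n = 3), and the controls by 1.68 (n = 3). The difference between the groups was 0.73 ± 0.78 (SE, n = 3 per group, 95% interval -1.16 to 2.61; limma adjusted p = 0.597).

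Muc5ac, the main secreted mucin of pit cells, was low on both control 3 and mutant 1. Its tested probe had log2 ratios of 4.19, 4.17 and 2.63 in controls 1 to 3 and 2.51, 3.82 and 3.68 in mutants 1 to 3. The sample signals were 59111, 59387 and 982 in the controls and 1234, 49040 and 38161 in the mutants. Mutant 1 was thus the lowest of the 6 by ratio, next to control 3, while the other 4 arrays lay close together. The other Muc5ac probe was far dimmer, with sample signals of 102 to 465. By log2 ratio it gave the same 2 arrays as the lowest, at 0.16 on control 3 and 0.04 on mutant 1 against 1.31 to 1.98 on the rest. After normalization across arrays, its sample signal on control 3 differed from controls 1 and 2 by 0.06 log2 units and its reference by 1.55. On mutant 1 its sample signal differed from mutants 2 and 3 by -1.82 and its reference by -0.20. The drop of the tested probe on control 3 was thus not seen in the other probe's normalized sample signal. The tested probe differed between the groups by -0.33 ± 0.54 (SE, n = 3 per group, 95% interval -1.62 to 0.97; limma adjusted p = 0.735), and the other by -0.03.

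Muc6, the mucin of neck cells, did not share this pattern at its probe. Its log2 ratio was 0.60, 0.05 and 0.16 in controls 1 to 3 and -0.07, 0.42 and 0.13 in mutants 1 to 3, and its sample signal was only 159 to 244. The signal on control 3 was the lowest of the 6 but differed from that of controls 1 and 2 by only 1.35-fold. On all 6 arrays the signal was 3.53 to 4.91 times its background, so a change of the gene could have gone unseen at this probe. The groups differed by -0.11 ± 0.20 (SE, n = 3 per group, 95% interval -0.60 to 0.38; limma adjusted p = 0.763).

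Cldn18, the junction protein, followed the gastrokines. Its log2 ratio was 4.65, 4.42 and 0.02 in controls 1 to 3 and 3.72, 4.43 and 4.23 in mutants 1 to 3. The sample signals were 9331, 8547 and 62 in the controls, the last not well above background in either channel, and 1782, 10506 and 6491 in the mutants. Control 3 lay lowest by a wide gap, mutant 1 was the lowest of the rest, and the groups overlapped. The difference of 1.09 ± 1.21 (SE, n = 3 per group, 95% interval -1.84 to 4.02) did not pass (limma adjusted p = 0.61).

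**Figure D1:**
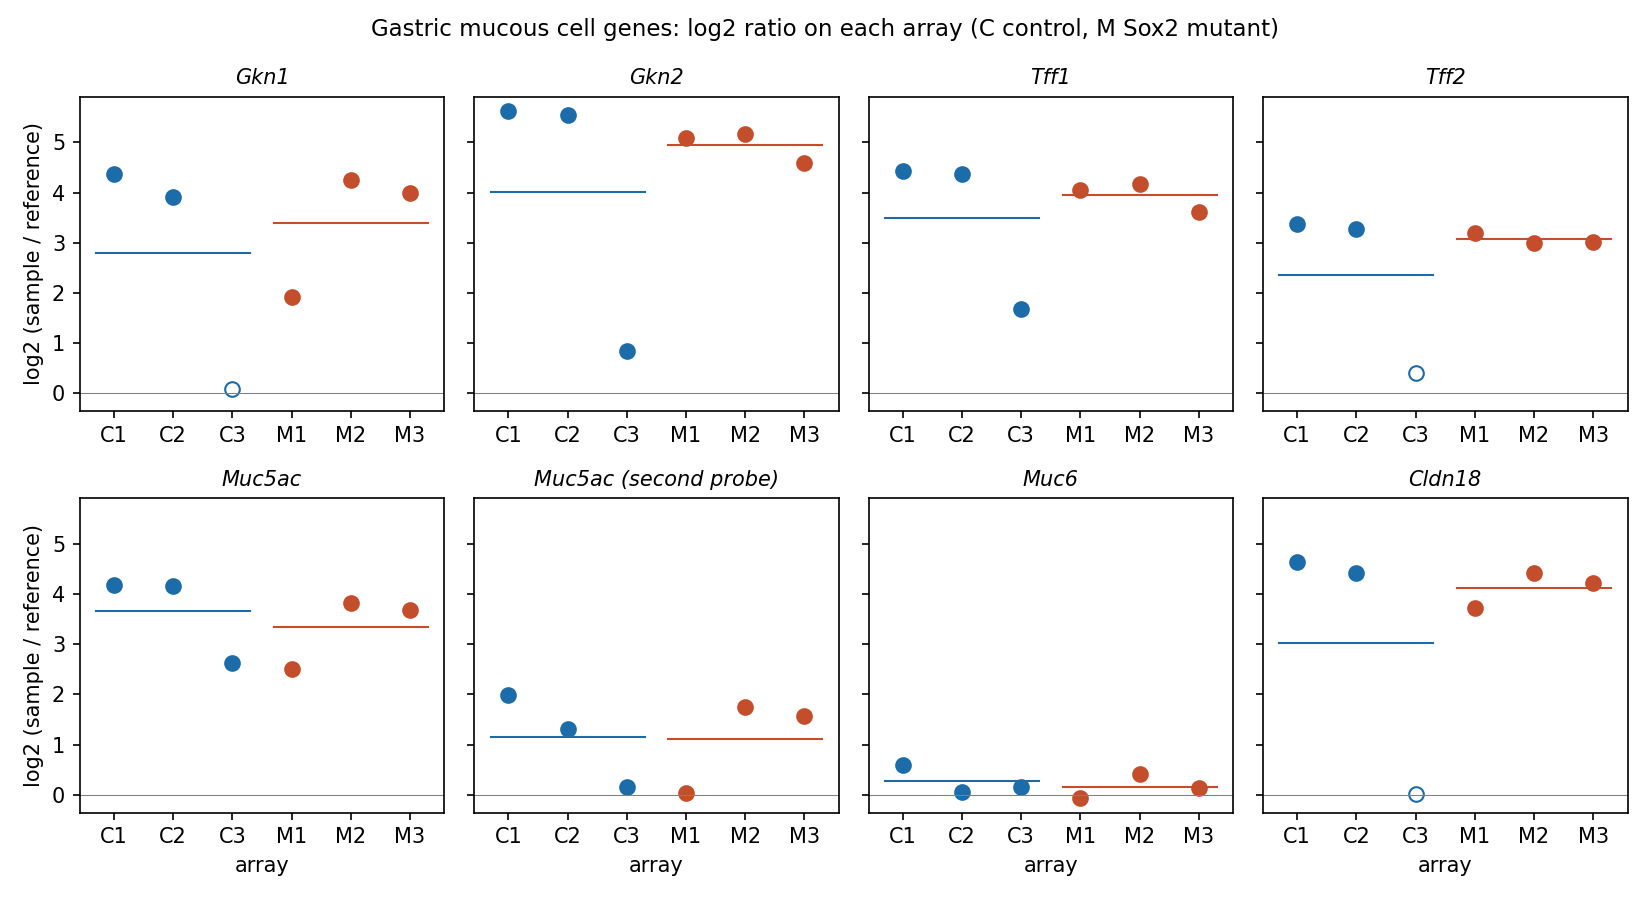
The log2 ratio of sample over reference is plotted on each array (C1 to C3 controls, M1 to M3 Sox2 mutants) for the 8 probes, with a line at each group's mean and open circles where the sample channel was not well above background. Gkn1, Gkn2, Tff1, Tff2 and Cldn18 were lowest on control 3, and Gkn1, whose reference was not well above background there, and both Muc5ac probes were also low on mutant 1.

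Between mutants and controls, 0 of the 7 genes passed limma's test at an adjusted p of 0.05, against 2.82% of all genes (287, or 1.39%, higher and 294, or 1.43%, lower in mutants). At an unadjusted p under 0.05 the count was also 0 of 7, against 4904 of the 20579 genes. In no member did the 3 mutant values lie all above or all below the 3 control values, which they did in 37.9% of genes. By an exact two-sided permutation test over the arrays, whose smallest possible p is 0.1, the members' p ranged from 0.5 for Muc5ac to 1 for Gkn2, Tff1 and Tff2. The median difference over the members was 0.60, against 0.01 over all genes, with 5 positive and 2 negative. With control SDs of 0.90 to 2.74 log2 units in all members but Muc6, the intervals were wide enough to hold changes of over 1 log2 unit in either direction for Gkn1, Gkn2, Tff1, Tff2 and Cldn18.

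Without control 3, the comparison holds only arrays of 1 scan day, and all 7 members were lower in the mutants. Controls 1 and 2 lay on slide 1, control 3 on slide 2 and the mutants on slide 3, so no slide held both groups. In this and every other comparison of the groups, genotype and slide therefore cannot be told apart. The differences were -0.75 for Gkn1, -0.64 for Gkn2, -0.45 for Tff1, -0.24 for Tff2, -0.85 for Muc5ac, -0.17 for Muc6 and -0.41 for Cldn18. The direction therefore turned for 5 of the 7, and the values of Muc5ac and Muc6 grew by over 1.5 times. Still, 0 of 7 passed the test, with limma adjusted p from 0.116 for Gkn2 to 0.653 for Muc6, against 7.21% of all genes. The median over the members was -0.45, against -0.02 over all genes. The value of Gkn1 rested mostly on mutant 1, where its reference was not well above background. With both control 3 and mutant 1 left out, Gkn1 differed by -0.02. Without mutant 1, Muc5ac turned to 0.08 and Muc6 to 0.01, with 0 members called. The closely alike pairs alone, controls 1 and 2 against mutants 2 and 3, were also compared. There the test called Gkn2 (-0.71, limma adjusted p = 0.0379), Tff2 (-0.31, adjusted p = 0.0258) and Muc5ac (-0.43, adjusted p = 0.0116) lower in log2 ratio. For Tff2 the normalized sample signal was higher in those mutants by 0.71 log2 units, and the reference by 1.02. For Gkn2 the sample differed by -0.24 and the reference by 0.47, and for Muc5ac by -0.61 and -0.17. In that comparison the test also called 37.6% of all genes, 19.9% as lower. The comparison held only the arrays most alike, so its adjusted p-values do not measure the spread between animals. With each pair averaged beside control 3 and mutant 1, limma called 0 genes higher and 0 lower.

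**Figure D2:**
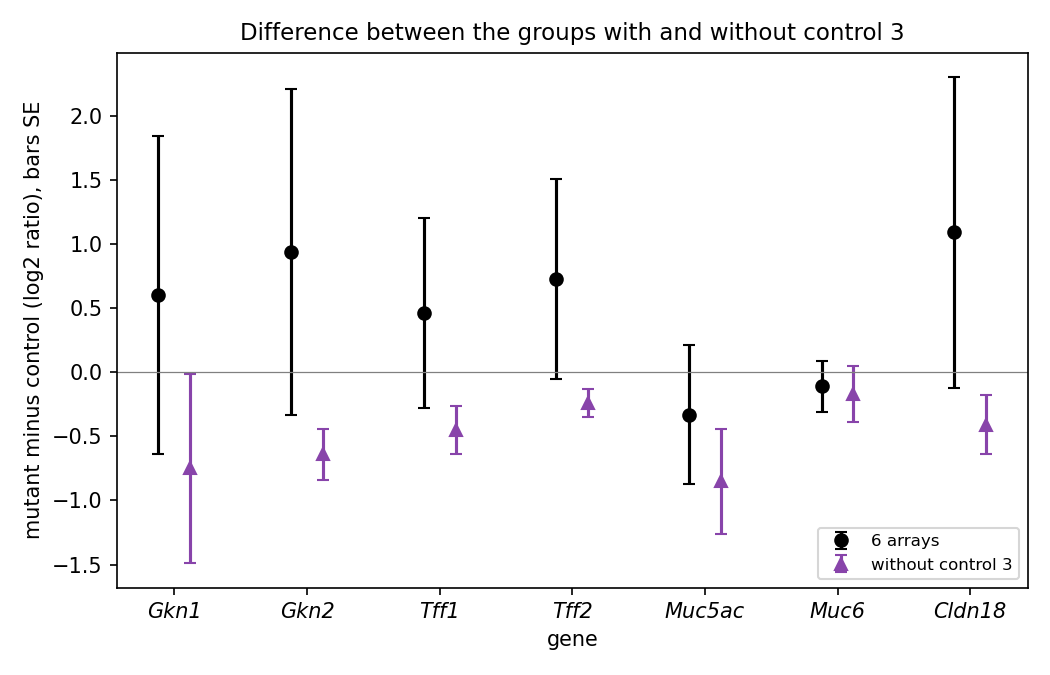
The difference between the groups (mutant minus control, log2 ratio, bars SE) is plotted for each of the 7 genes with all 6 arrays and without control 3. Without control 3 every value lay below 0, from -0.85 for Muc5ac to -0.17 for Muc6.

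For Gkn2, Tff1 and Muc5ac, the gap within the control group was larger than the difference between the groups. Control 3 lay below the mean of controls 1 and 2 by over 1 log2 unit in 6 of 7 members, against 8.47% of all genes. Only 4 members were well above background in both channels on control 3, and 3 of these 4 lay below by that much. Their log2 ratios differed by -4.74 for Gkn2, -2.72 for Tff1, -1.55 for Muc5ac and -0.16 for Muc6. For Gkn1, Tff2 and Cldn18 neither channel was well above background there, so the computed differences of -4.06, -2.91 and -4.51 rest on unmeasured ratios and bound nothing. The median with these included was -2.91 over the members and -0.08 over all genes. With the processed signals 5 of 7 lay over 1 unit below, and Muc5ac read -0.91. This is a description of a single array, with no test. Its scan day, slide and animal cannot be told apart, and in bulk tissue neither can fewer mucous cells and less RNA per cell.

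Within the mutants, mutant 1 lay below the mean of mutants 2 and 3 by over 1 log2 unit in 2 of 7 members, Gkn1 (-2.21) and Muc5ac (-1.23), against 3.8% of all genes. The reference signal of Gkn1 on mutant 1 was not well above background, so this ratio was not measured on both sides. With the scanner software's processed signals, an alternative added after seeing the data, Gkn1 turned to 0.31, Muc5ac read -0.78 and 0 of 7 lay over 1 unit below. Gkn2 (0.22), Tff1 (0.16) and Tff2 (0.19) lay slightly above it in log2 ratio, and Cldn18 (-0.61) and Muc6 (-0.35) below it. Mutant 1 shared its scan day and slide with mutants 2 and 3.

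The sample channel alone showed larger gaps than the ratio did. After normalization across arrays, control 3 differed from controls 1 and 2 in log2 sample signal by -10.3 for Gkn2, -8.32 for Tff1, -4.40 for the tested Muc5ac probe and 0.58 for Muc6. For the 3 genes not well above background in this channel the drop is a lower bound. Control 3 was at least 558-fold lower for Tff2, at least 83.4-fold lower for Cldn18 and at least 23-fold lower for Gkn1, where control 3 entered with the probe's own signal, which was above that of the dimmest probe passing the background test. In the same measure mutant 1 lay below mutants 2 and 3 in 7 of 7 members, by -4.88 for Muc5ac, -3.44 for Gkn1, -2.02 for Cldn18, -1.88 for Gkn2, -1.52 for Tff1, -1.09 for Tff2 and -0.20 for Muc6. The medians over all genes were -0.06 and 0, so Gkn2, Tff1 and Tff2 were lower on mutant 1 by signal and not by ratio.

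The reference channel moved with the sample channel, although the same reference RNA is named for every array. The reference signal of Gkn2 was 8857 and 7948 on controls 1 and 2, 122 on control 3, and 3211, 11815 and 14907 on mutants 1 to 3. For the tested Muc5ac probe it was 3027, 2603 and 207 in the controls and 186, 3048 and 2560 in the mutants. At both probes the reference was dim on the arrays where the sample was dim. After normalization the reference channel was lower on control 3 by over 1 log2 unit in 5 of 7 members, against 3.37% of all genes, and on mutant 1 in 6 of 7, against 0.965%. The background-subtracted reference signal was 1.41% to 2.75% of the sample signal for Gkn2 on the 5 bright arrays, and 7.98% to 9.82% for Tff2. Why the channels moved together was not tested. On control 3, the ratios of Gkn2, Tff1 and the tested Muc5ac probe moved less than their sample channels did. Elsewhere this did not hold throughout: between mutants 2 and 3 and controls 1 and 2, Gkn2 differed by -0.71 in log2 ratio and -0.24 in log2 sample signal. In the sample channel 0 of the 7 members passed limma's test between the groups, against 1.48% of genes. Without control 3 the same channel gave -2.29 for Muc5ac, -1.44 for Gkn1, -0.96 for Cldn18, -0.83 for Gkn2, -0.63 for Tff1, -0.15 for Muc6 and 0.40 for Tff2. Again 0 of 7 passed, with limma adjusted p from 0.402 to 0.633, against 7.31% of genes.

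**Figure D3:**
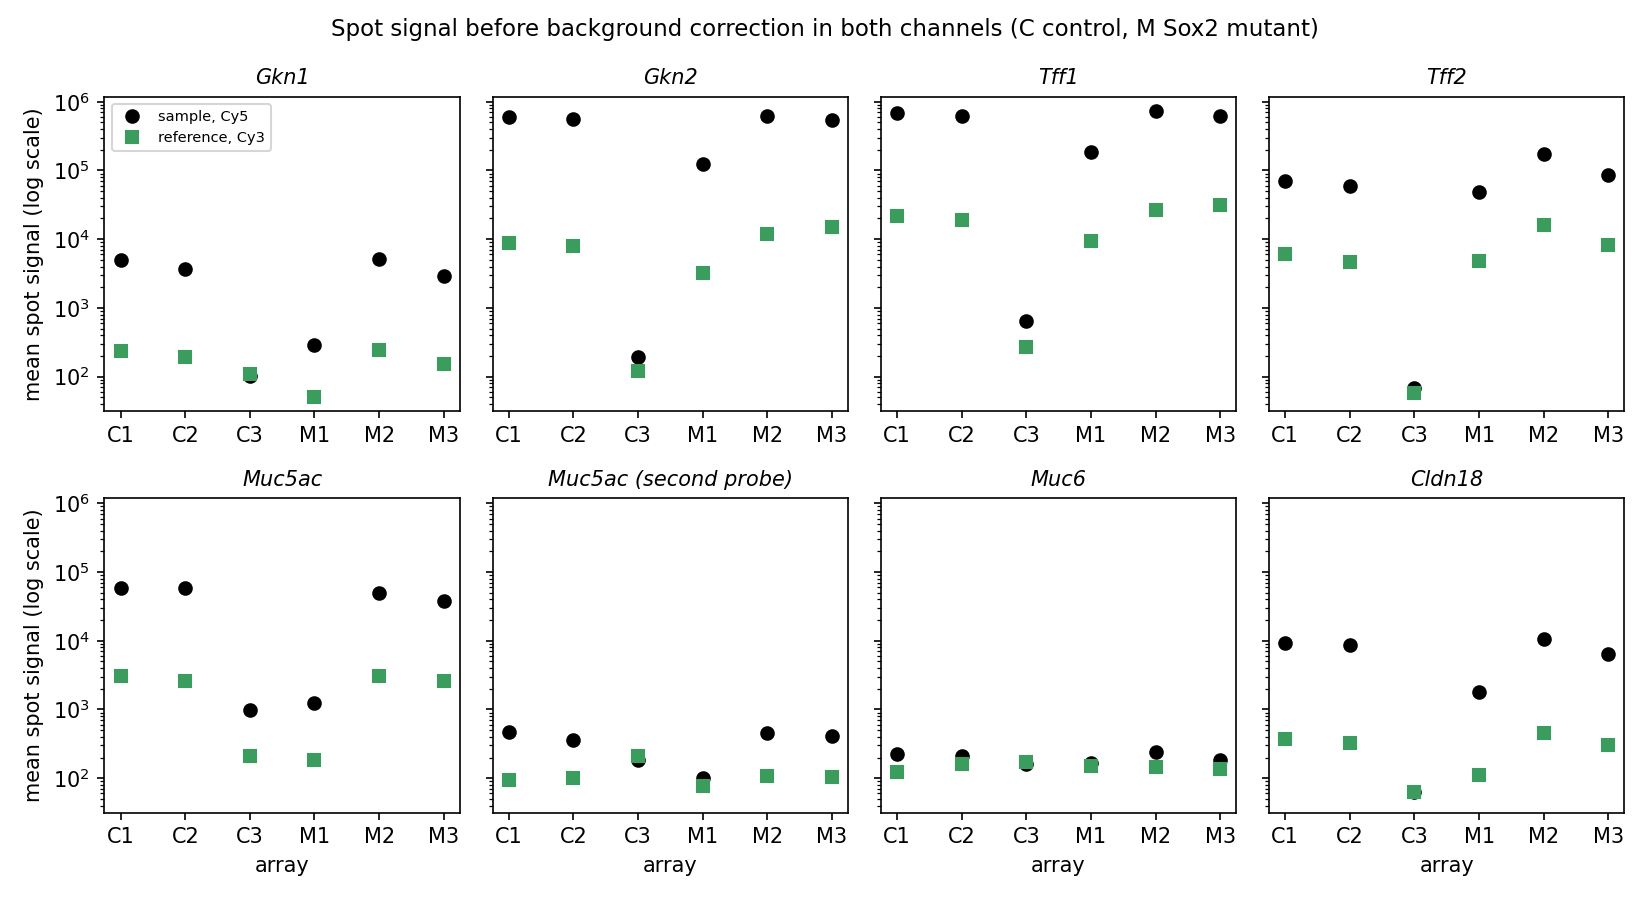
The mean spot signal before background correction is plotted on a log scale for the sample (Cy5, circles) and the reference (Cy3, squares) on each array. For Gkn2, Tff1, Tff2, the tested Muc5ac probe and Cldn18 both channels dropped on control 3, and for the tested Muc5ac probe both dropped on mutant 1 (1234 and 186).

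Neighbours in the same gene clusters moved in part with the members. Gkn3, a gastrokine next to Gkn1 and Gkn2, had log2 ratios of 3.95, 3.78 and 0.28 in controls 1 to 3 and 3.73, 3.92 and 3.69 in mutants 1 to 3. This is the profile of Gkn2 and Tff2, with 1 low array, control 3. Muc5b, a mucin next to Muc5ac, had 1.43, 1.26 and 0.28 in the controls and 1.5, 3.30 and 2.76 in the mutants, a difference of 1.53 ± 0.52 (SE, n = 3 per group) that did not pass (limma adjusted p = 0.155). The intestinal goblet cell genes Tff3 and Muc2 had sample signals of at most 172 and 96. None of these 4 genes was called.

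Most further genes of mucous and surface cells gave the same picture on control 3. Of 24 listed, 22 were tested. On control 3 the log2 ratio of 15 of these lay over 1 unit below the mean of controls 1 and 2, against 8.47% of all genes. Their median there was -2.30, and Capn9 (0.37) was not lower. Agr2, a chaperone needed for mucin folding and singled out here after its values were seen, had sample signals of 76638, 66461 and 85 in the controls and 30608, 93194 and 47059 in the mutants. Its log2 ratio was 4.35 to 4.75 on 5 arrays. On control 3 it read 0.19, with a sample signal not well above background. Between the groups, 1 of the 22 was called higher in mutants and 0 lower, against 1.39% and 1.43% of all genes. This was Fcgbp, a protein of mucus, with log2 ratios of 2.00, 1.60 and 1.15 in the controls and 2.72, 3.15 and 3.01 in the mutants. All 3 mutants lay above all 3 controls, by 1.37 ± 0.24 on average (SE, n = 3 per group, limma adjusted p = 0.0452). The call was lost under 14 of 21 alternatives, with adjusted p from 0.00303 to 0.488. The median over the 22 genes was 0.76 with all arrays and -0.26 without control 3.

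Parietal and chief cells, the acid- and enzyme-secreting cells of the same glands, were marked by 17 genes, of which 0 were called. Their median between the groups was -0.02, and -0.78 without control 3, where 14 of 17 were negative. Without control 3, 2 were called lower, against 4.03% of all genes. These were Bhlha15 (-1.18, limma adjusted p = 0.0093) and Aqp4 (-0.63, adjusted p = 0.0435). Over all alternatives the adjusted p of Bhlha15 ranged from 0.000805 to 0.815. Aqp4 was named after its values were seen. The median was -1.74 on control 3, where 12 of 17 lay over 1 log2 unit below controls 1 and 2, against 8.47% of all genes. It was -1.18 on mutant 1, where 9 of 17 lay over 1 log2 unit below mutants 2 and 3, against 3.8% of all genes. Slc26a9 (0.40) and Esrrg (1.02) were not lower on control 3. Chia1, the stomach chitinase of chief cells, and Atp4b, a subunit of the parietal cell proton pump, are given as examples of large drops, chosen after their values were seen. The sample signal of Chia1 was 465236, 444886 and 106 in the controls and 127, 48109 and 29818 in the mutants. That of Atp4b was 277303, 241135 and 150 in the controls and 1182, 86097 and 31988 in the mutants. Chia1 was thus as dim on mutant 1 as on control 3, an array pair between which Tff2 read 48192 and 68. Mutants 2 and 3 were lower than controls 1 and 2 by over 1 log2 unit in the sample channel in 8 of the 17 parietal and chief genes, with a median of -0.98. Among the 7 mucous members the count was 0, with a median of -0.24, and over all genes 3.02% were that much lower. The difference between these gene lists was not tested. In log2 ratio the medians for the same arrays were -0.28 and -0.31.

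Other cell types moved with the members to different degrees. Of the 16 squamous genes tested, the markers of the labelled tissue, 2 were not well above background on control 3. Krt6a, a keratin named after its values were seen, had sample signals of 3060, 6805 and 76 in the controls. Before background correction the sample signals of the 16 squamous genes summed to 3032055, 3162923 and 1824079 in controls 1 to 3 and 3447263, 3582225 and 3907567 in mutants 1 to 3. Control 3, the dimmest array, was the lowest in this sum, and after normalization across arrays it was the highest, at 3860000 against 2400000 to 2730000. Keratin 5 alone gave 154664 to 610326 before correction. The same sum over the 7 members was 1411468, 1318325 and 2204 in controls 1 to 3 and 363520, 1596446 and 1292031 in mutants 1 to 3. After normalization the members' sum on control 3 was still the lowest, at 4970 against 306000 to 1120000. Relative to controls 1 and 2, the median log2 ratio on control 3 was 0.41 for the squamous genes, -1.85 for 14 genes of simple columnar epithelium, -2.09 for 9 genes of stroma and muscle and -0.25 for 7 leukocyte genes. On control 3 the columnar keratins, named here after their values were seen, Krt8 (-3.53 against -0.06 and -0.33 on controls 1 and 2) and Krt19 (-3.47 against 1.49 and 1.24) were low as well. On control 3, 12 of 17 parietal and chief, 6 of 10 endocrine, 11 of 14 columnar and 7 of 9 stromal genes lay over 1 log2 unit below controls 1 and 2. Not all of these ratios were measured. In the sample channel on control 3, 7, 5, 3 and 0 genes of these lists were not well above background. The share over all genes was 8.47%. Others of the glandular and columnar lists were not low there by log2 ratio: Capn9 (0.37), Slc26a9 (0.40), Esrrg (1.02), Ehf (1.31), Chga (-0.01) and Epcam (0.91). By normalized sample signal Chga was low there too, differing by -1.54, whereas the rest of these differed by 0.43 to 2.26. Many but not all glandular, columnar and stromal genes were thus low together on control 3 by log2 ratio. The part that tissue makeup has in the members' values was not tested.

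Between the groups, calls in most of these lists were few. Of all genes, 2.82% were called, 1.39% as higher in mutants. Without control 3, 7.21% were called, 4.03% as lower. Among the 16 squamous, 9 stromal, 10 endocrine and 12 glandular transcription factor genes tested, 0 were called. Without control 3, 1 endocrine gene was called lower, Scg5 (-1.21, limma adjusted p = 0.0311, from 0.00546 to 0.716 over all alternatives), and the endocrine median moved from -0.13 to -0.38. Among the 14 columnar genes 1 was called, Cldn2, a claudin of leaky epithelia, whose log2 ratios of 0.77, 0.98 and -0.12 in the controls and 3.44, 4.08 and 3.23 in the mutants did not overlap (3.05 ± 0.35, SE, n = 3 per group, limma adjusted p = 0.0164). That call was lost under 8 of 20 alternatives, with adjusted p from 0.00213 to 0.256. Without control 3 Epcam, an epithelial adhesion protein named after its values were seen, was called higher too (0.69, limma adjusted p = 0.0366). Of 7 leukocyte genes 3 rose, among them S100a8, a calcium-binding protein of neutrophils and of stressed squamous cells, from -1.82 ± 0.93 to 6.04 ± 0.32 (SD, n = 3 per group, limma adjusted p = 0.0034). Of 21 alternatives, the call of S100a8 was lost under 2, that of Cd68, a macrophage protein, under 8 and that of Csf1r, a macrophage growth factor receptor, under 16. Of the 9 intestinal and pancreatic genes tested, 0 were called.

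**Figure D4:**
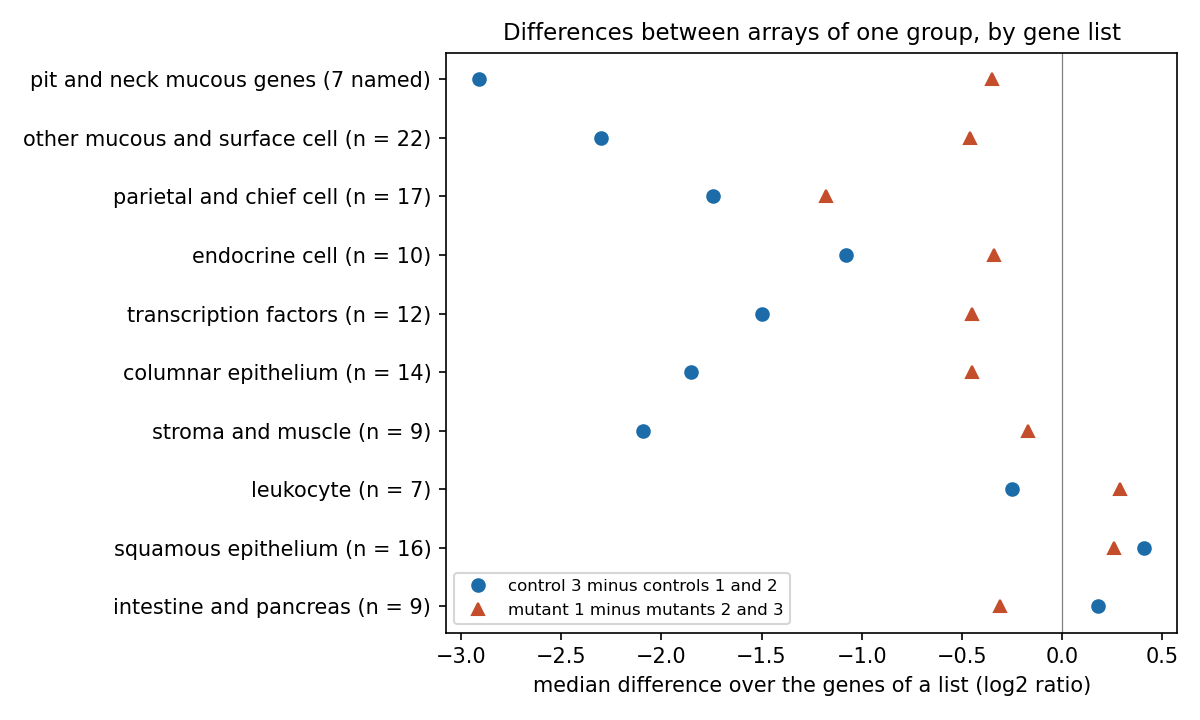
The median difference in log2 ratio over the genes of each list is plotted for control 3 minus controls 1 and 2 (circles) and for mutant 1 minus mutants 2 and 3 (triangles). The mucous members had the lowest median on control 3 (-2.91, with 3 unmeasured ratios included), whereas on mutant 1 the parietal and chief cell genes had the lowest (-1.18, against -0.35 for the members). Most other lists also include genes not well above background on control 3, 7 of 17 among the parietal and chief cell genes.

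The members' mean profile over the 6 arrays, each gene centred on its own mean, was 0.85, 0.63 and -2.21 in controls 1 to 3 and -0.12, 0.57 and 0.28 in mutants 1 to 3. Pearson's r with this profile was 0.992 for Cldn18, 0.973 for Gkn2, 0.968 for Tff1, 0.960 for Tff2, 0.952 for Gkn1, 0.776 for Muc5ac and 0.332 for Muc6, each gene being itself part of the mean. Among 729 other genes with an SD of at least 1 log2 unit, the 10 most alike had r of 0.996 to 0.998. They were Syt16, Slc9a2, Ltf, Bpifb1, Pla2g10, Ctse, Acnat1, Slc44a4 and 2 transcripts that the files name only by Ensembl number. Slc9a2 is a sodium-proton exchanger of epithelia, Ltf the iron-binding secreted protein lactoferrin, and Ctse an aspartic protease of gastric surface cells. Slc9a2 had log2 ratios of 5.09, 4.57 and -1.78 in controls 1 to 3 and 2.64, 4.03 and 3.43 in mutants 1 to 3. In all 10 the lowest array was control 3. These correlations over 6 arrays are a description, over a profile whose farthest value from its mean is that of control 3.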

How the data were processed

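RNA of 3 control and 3 mutant forestomach sheets was read on 2-colour Agilent arrays. The deposited intensity values are those of the scanner software, Agilent Feature Extraction: version 10.7.3.1 wrote control 3 and version 10.5.1.1 the others, per the file headers, while the submitters' processing notes give 9.1. The authors' table of log2 ratios was also deposited, with no account of its making in the sources used here. Compared with ratios from the scanner files it ran in the same direction, sample over reference, its slopes were 1.114 to 1.171 and its columns had medians of 0.026 to 0.06. Its centring is unknown. Signals were corrected with normexp (offset 50) and loess within arrays in limma 3.58.1 under R 4.3.3, with control spots and outlier flags given no weight. Probes that passed the software's background test in Cy5 on 3 or more of 6 arrays were tested, and a gene was represented by its brightest probe. RefSeq tables (GRCm38.p6) named 79.4% of probes. Groups were compared by limma's moderated test with Benjamini-Hochberg adjustment over all 20579 genes at 0.05, without a replicate block. Sample-channel values were quantile-normalized between arrays for the test, and normalized by loess and Aquantile for differences between single arrays. On simulated data (20491 genes, 100 changed by 1 and 100 by 2 log2 units between mutants and controls) the test recovered 38% and 85% of them, with 6 false calls. Array number limits precision. Recovery at the members' own spread was not tested, and their control SDs were 0.90 to 2.74 log2 units in all but Muc6.

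The members and all gene lists were chosen with earlier results of these data known. From each list the 4 genes with the smallest p could be named, and the 10 genes most like the members. Agr2, Chia1, Atp4b, Aqp4, Epcam, Krt5, Krt6a, Krt8 and Krt19 were named after their values were seen.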

Additional observations from a re-analysis of the deposited data

How the results depend on the processing

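The count of 0 members called held under every alternative but that without control 3 and mutant 1 together, where it was 3. Genes called higher and lower numbered 287 and 294 in the analysis as reported. They were 125 and 100 with the scanner software's processed signals, 139 and 126 with median centring, 6 and 2 with arrays scaled to one spread, and 142 and 162 in the sample channel alone. The slide as a random block gave 3 and 1, and scan day as a block 654 and 829. The deposited table called 190 lower. With the near-identical pairs averaged, limma called 0 and 0 (2193 genes at an unadjusted p under 0.05). Without control 3 and mutant 1 together they were 3640 and 4090. Leaving out single arrays gave 23 to 654 higher and 10 to 829 lower, the most without control 3. The sample channel alone without control 3, chosen after seeing the data, gave 622 and 882.

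Same-numbered arrays deviated together with r of 0, 0.02 and 0.13, so the numbers were not taken as pairs. The replicate block gave 95 genes higher and 42 lower and 0 members.

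Directions turned as follows, in log2 units, and the cause was not tested. Arrays scaled to one spread gave 0.0048 for Muc5ac and 0.08 for Sox2. The sample channel alone gave -0.0028 for Gkn1, 0.11 for Muc2 and 0.95 for Krt14. The deposited table gave -0.02 for Barx1. Scan day as a block, which leaves out control 3 in effect, gave -0.75 for Gkn1, -0.64 for Gkn2, -0.45 for Tff1, -0.24 for Tff2, -0.41 for Cldn18, 0.02 for Sis, -0.09 for Gkn3 and 0.01 for Muc2. Without control 3 and mutant 1, the values were -0.02 for Gkn1, -0.71 for Gkn2, -0.50 for Tff1, -0.31 for Tff2, -0.21 for Cldn18, 0.0019 for Pax6, -0.09 for Elf3, 0.14 for Sis and -0.06 for Gkn3. The sample channel alone without control 3 gave -1.44 for Gkn1, -0.83 for Gkn2, -0.63 for Tff1, -0.96 for Cldn18, 0.07 for Pax6, 0.08 for Muc2 and 0.85 for Krt14. With single arrays left out, the values ranged from -0.75 to 1.39 for Gkn1, -0.64 to 1.76 for Gkn2, -0.45 to 0.93 for Tff1, -0.24 to 1.24 for Tff2, -0.85 to 0.08 for Muc5ac, -0.41 to 1.90 for Cldn18, -0.95 to 0.02 for Sis, -0.09 to 1.75 for Gkn3 and -0.14 to 0.01 for Muc2. Muc6 turned to 0.05 without control 1 and to 0.01 without mutant 1, and Muc5ac to 0.08 without mutant 1. A filter on all 6 arrays left out Gkn1, Tff2 and Cldn18, which were not well above background in either channel on control 3, so their ratios there were not measured. With the processed signals, mutant 1 minus mutants 2 and 3 turned to 0.31 for Gkn1.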
